A study of Mus musculus with 48 samples.

Results

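The genes described here are pre-mRNA splicing factors in the hippocampus of mice after chronic intermittent ethanol (CIE) vapor. They were chosen by name, as genes whose single symbol on the array starts with Srsf, Hnrnp, Prpf, Sf3a, Sf3b or Snrp, or is Clk1, Clk2, Clk3, Clk4, Tra2a, Tra2b, Srrm1, Srrm2 or Ddx5. This gave 68 of the 18193 genes measured, and each gene was read from 1 of its probe sets, the one with the highest mean over the 48 arrays. The 68 genes have 203 probe sets with a single symbol, and the other 135, which belong to 49 of the genes, are described after the genes themselves.

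The 48 mice were males of the C57BL/6J strain, which the labels give as C57BL/6, and the hippocampus of each mouse was read on 1 Affymetrix array. CIE mice went through 4 cycles, each with 4 days of 16 h sessions in ethanol vapor (10 to 13 mg per l) and then 7 d of abstinence, and ethanol (1.6 g/kg) with the alcohol dehydrogenase blocker pyrazole (1 mmol/kg) was injected i.p. before each cycle. Ctrl mice breathed air and were injected with saline and pyrazole, so that pyrazole is common to both treatments. The final session was followed by tissue harvest at 0 h, 8 h, 72 h or 7 d, and each of the 8 groups held 6 mice, not pooled.

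Splicing removes introns from a newly made RNA and joins the exons. The spliceosome does this with small nuclear ribonucleoproteins (snRNPs), most of them built on a ring of Sm proteins, together with the SF3A and SF3B complexes that help the U2 snRNP hold the branch point and with Prp proteins that rearrange the machine. SR proteins mostly favour the use of an exon and hnRNPs often oppose it, CLK kinases phosphorylate SR proteins and so release them from nuclear speckles, and neurons rely heavily on alternative splicing.

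Values are log2 expression, differences are CIE minus Ctrl on that scale with the standard error (SE) of the limma model, and adjusted p is the Benjamini-Hochberg value over all 45037 probe sets. A gene was called where this adjusted p was at most 0.01. Array medians lay between 6.60 and 6.63, and arrays correlated at 0.974 to 0.998. Exactly equal values placed 47 arrays in 6 sets, each holding mice of both treatments, and 1 array, that of Ctrl mouse 2 (0 h), belonged to none. No label gives the batch, and the sets are read here as hybridization sets. Fits with the sets as a block gave the array of Ctrl mouse 2 a term of its own. It therefore carried no weight in their differences at 0 h or averaged over the harvests.

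The tissue label was checked with 10 markers of hippocampal neurons, such as Prox1, Wfs1 and Neurod6. Their mean level was 8.70 in Ctrl mouse 18 and 8.71 in Ctrl mouse 22, both of 7 d, and 9.83 in Ctrl mouse 66 of 8 h, and the next lowest array had 10.25. At 7 d 10 of the 10 markers were higher in CIE than in Ctrl mice, with a median difference of 0.75, so the calls at 7 d are also given without Ctrl mice 18 and 22. In whole tissue, fewer cells of a type and less RNA per cell cannot be told apart.

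The promoters of 4 of the 5 genes called at a single harvest are shown here, so that their letters can be read beside the values below; Clk1 is the fifth. RefSeq windows from 250 bases before to 50 bases after a transcript start were matched for 61 of the 68 genes, as 83 windows of build GRCm38.p6. Capitals mark matches on either strand to the CCAAT box (CCAAT), the GC box (GGGCGG), the cyclic AMP response element (TGACGTCA) and the ETS motif (CCGGAAG), and no match overlaps another here.
Tra2a, chr6:49264003-49264302, minus strand: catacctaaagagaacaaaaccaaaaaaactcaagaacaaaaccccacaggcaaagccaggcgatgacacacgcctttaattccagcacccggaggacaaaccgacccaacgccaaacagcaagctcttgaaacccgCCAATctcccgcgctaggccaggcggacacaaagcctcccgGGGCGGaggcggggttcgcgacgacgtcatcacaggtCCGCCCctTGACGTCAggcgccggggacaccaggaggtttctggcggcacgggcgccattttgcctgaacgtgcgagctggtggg
Clk4, chr11:51262864-51263163, plus strand: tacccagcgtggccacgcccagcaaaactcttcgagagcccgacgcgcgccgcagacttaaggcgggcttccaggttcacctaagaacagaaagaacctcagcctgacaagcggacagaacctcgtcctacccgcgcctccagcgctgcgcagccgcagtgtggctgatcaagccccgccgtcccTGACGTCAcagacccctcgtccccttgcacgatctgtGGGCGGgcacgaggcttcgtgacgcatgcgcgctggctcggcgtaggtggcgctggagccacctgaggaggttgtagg
Prpf4b, chr13:34875279-34875578, plus strand: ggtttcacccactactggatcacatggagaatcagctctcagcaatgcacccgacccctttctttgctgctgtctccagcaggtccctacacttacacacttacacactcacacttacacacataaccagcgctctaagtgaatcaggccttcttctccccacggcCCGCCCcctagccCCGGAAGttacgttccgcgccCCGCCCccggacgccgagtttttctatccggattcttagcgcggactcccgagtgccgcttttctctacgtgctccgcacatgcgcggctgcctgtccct
Snrpa1, chr7:66060086-66060385, plus strand: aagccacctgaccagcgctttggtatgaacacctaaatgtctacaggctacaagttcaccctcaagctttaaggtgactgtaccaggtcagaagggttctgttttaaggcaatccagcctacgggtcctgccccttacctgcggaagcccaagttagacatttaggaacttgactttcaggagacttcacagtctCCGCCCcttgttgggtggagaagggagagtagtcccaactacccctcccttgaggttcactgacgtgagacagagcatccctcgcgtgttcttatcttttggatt

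The letters TGACGTCA stood in the windows of Tra2a and Clk4, in 3.61% of the windows of the 68 genes and in 1.79% of the 32841 RefSeq windows of this length. CCGGAAG stood in 31.3% of the windows of the 68 genes and in 8.86% of all windows, GGGCGG in 62.7% and 35.7%, and CCAAT in 47% and 37.4%. A match describes these letters, and binding was not measured.

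Few of the 68 genes passed the threshold at a single harvest, and those that did were lower in CIE mice. At 0 h 3 genes were lower and 0 higher, against 0.39% and 1.25% of all genes. At 8 h 2 were lower and 0 higher, against 0.693% and 1.6% of all genes. At 72 h limma called 0 of the 68, while 0.0055% of all genes were called lower and 0% higher, and 17 of the 68 had an unadjusted p under 0.05, as did 7.57% of all genes. At 7 d limma called 0, against 0.176% lower and 0.852% higher, with 7 of the 68 at an unadjusted p under 0.05 and 18.7% of all genes.

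**Figure D1:**
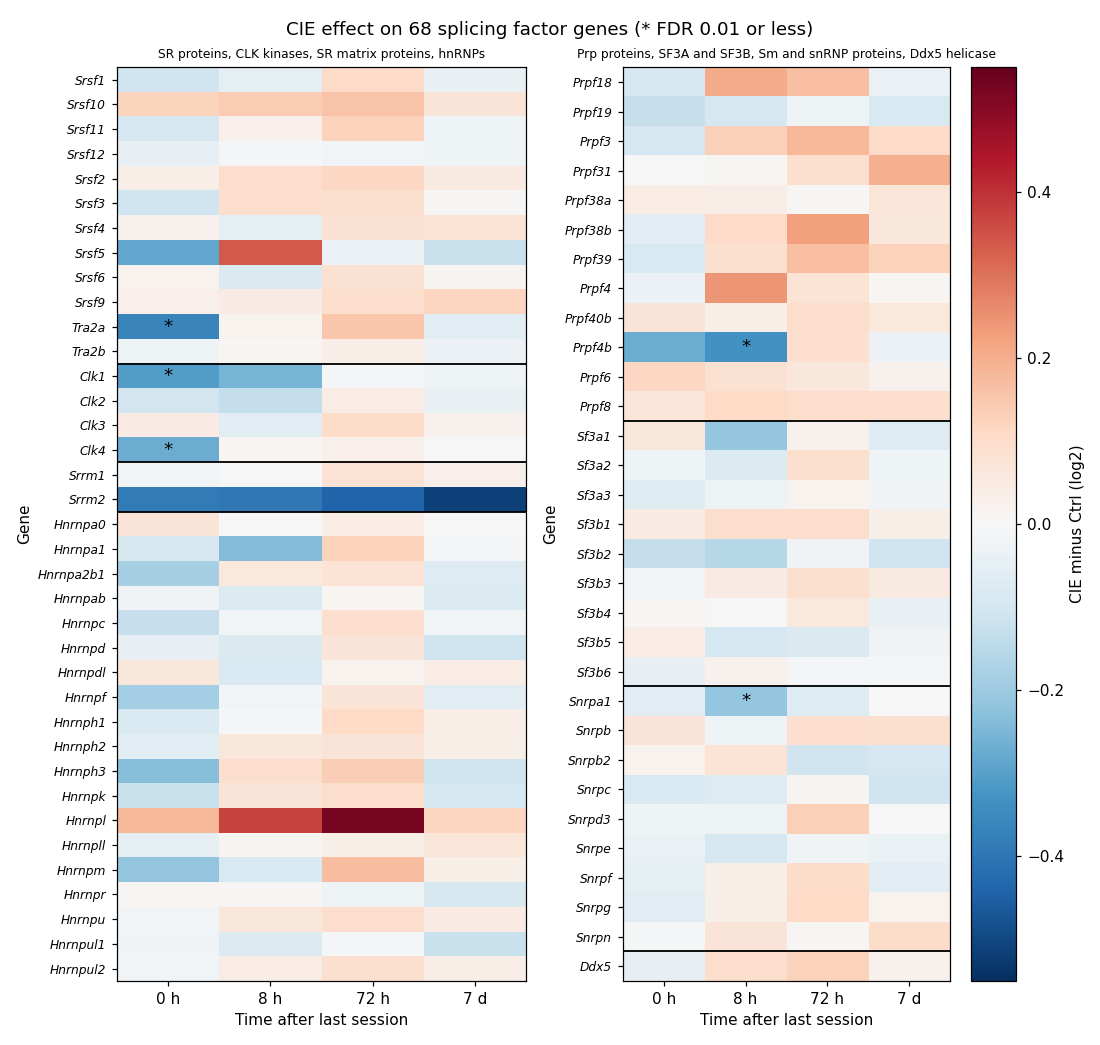
Log2 difference between CIE and Ctrl means (6 mice each) for the 68 splicing factor genes, grouped by family, at the 4 harvests. Red is higher and blue lower in CIE mice; the differences called were those of Tra2a, Clk1 and Clk4 at 0 h and of Prpf4b and Snrpa1 at 8 h.

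The 68 genes leaned downward at 0 h and upward at 72 h. At 0 h 47 were lower in CIE mice and the median difference was -0.044, while that of all genes was 0.041. At 72 h 55 were higher, with a median of 0.084 against 0.013 for all genes. The medians at 8 h (0.009, all genes 0.0057) and 7 d (-0.00046, all genes 0.028) were closer to 0. Without Ctrl mice 18 and 22 the 7 d median was -0.020. These shifts are smaller than the difference of any gene called at a single harvest. The 68 genes and all genes also parted between groups of Ctrl mice. From 0 h to 8 h their median changes in Ctrl mice were -0.026 and 0.050, and from 0 h to 72 h -0.018 and 0.052. From 0 h to 7 d they were 0.0033 and 0.0094.

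The test of whether the CIE effect itself differed between harvests called 0 of the 68 by limma in each of 4 comparisons. For 72 h minus 0 h, 23 genes had an unadjusted p under 0.05 (11.8% of all genes, 0.0275% called), and 58 of the 68 differences were positive with a median of 0.10. For 8 h minus 0 h there were 13 (12.2%, 0.033% called). For 7 d minus 0 h there were 5 (9.97%, 0.066% called) and for 7 d minus 72 h 5 (10.1%, 0% called).

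**Figure D2:**
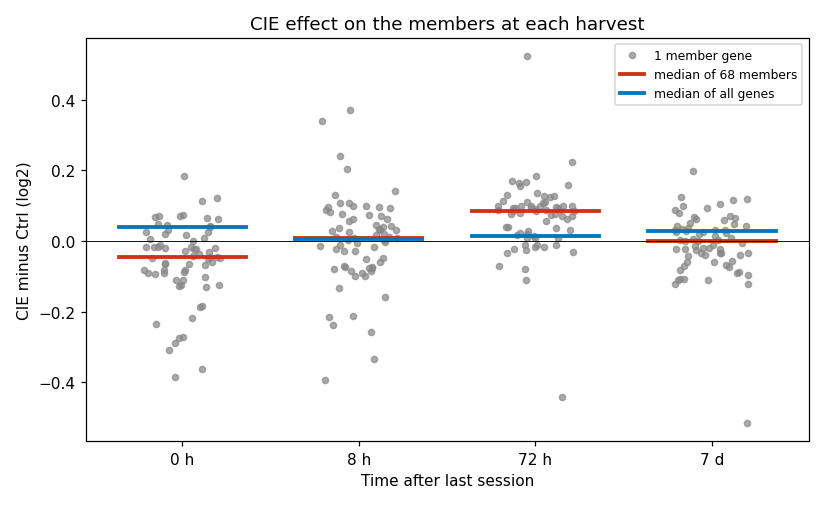
Log2 difference between CIE and Ctrl means for each of the 68 genes at 0 h, 8 h, 72 h and 7 d, with the median of the 68 and that of all genes. The median of the 68 lies below that of all genes at 0 h (-0.044 against 0.041) and above it at 72 h (0.084 against 0.013).

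Among the 12 SR proteins, 7 were lower at 0 h and 10 were higher at 72 h. Tra2a, which encodes an SR-like activator of exon inclusion, ranged from 9.96 to 10.55 (median 10.40) in Ctrl mice at 0 h and from 9.88 to 10.12 (median 9.96) in CIE mice. Ctrl mouse 2 lay within the CIE range and the other 5 Ctrl mice above it. The difference was -0.36 (SE 0.084, 1.29-fold lower, adjusted p = 0.0068 by limma, n = 6 per group). Without Ctrl mouse 2 it was -0.44 (adjusted p = 0.0013 by limma), and CIE values were lower in 5 of 5 hybridization sets.

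Tra2a in CIE mice stood at 10.12 to 10.60 (median 10.40) at 8 h, where Ctrl mice lay at 10.23 to 10.46 (median 10.36). The rise from 0 h to 8 h within CIE mice was 0.39 (SE 0.084, adjusted p = 0.0024 by limma). Tra2b, its paralog, differed by -0.027 between CIE and Ctrl mice at 0 h and was not called.

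Srsf3, the smallest SR protein, also linked to export of spliced RNA, rose in CIE mice as well. It stood at 10.91 to 11.09 (median 11.01) at 0 h and at 11.11 to 11.38 (median 11.24) at 8 h, with no overlap. The rise was 0.24 (SE 0.053, adjusted p = 0.0034 by limma), and the CIE minus Ctrl difference was called at neither harvest.

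Srsf10, which acts as a splicing repressor when dephosphorylated, had the highest difference of the SR proteins at 0 h (0.12, adjusted p = 0.35 by limma). Averaged over the 4 harvests it was higher by 0.12 (SE 0.035, adjusted p = 0.0094 by limma), a call lost in 36 of 48 refits that left out 1 mouse, without Ctrl mice 18 and 22, and with hybridization sets as a block (adjusted p = 0.023 by limma). Srsf5, a further exon activator, differed by 0.34 (SE 0.16, adjusted p = 0.27 by limma) at 8 h and -0.12 at 7 d. The lowest SR protein at 8 h was Srsf6 (-0.078) and the highest at 7 d Srsf9 (0.12), neither called.

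Of the 4 CLK kinases 3 were lower at 0 h, and 2 of these were called. Clk1 lay at 11.90 to 12.27 (median 11.99) in Ctrl and at 11.64 to 11.84 (median 11.72) in CIE mice at 0 h. No CIE value reached a Ctrl value. The difference was -0.31 (SE 0.072, 1.24-fold lower, adjusted p = 0.0074 by limma).

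At 8 h the Clk1 groups were again apart, with 11.90 to 12.12 (median 11.98) in Ctrl and 11.64 to 11.86 (median 11.73) in CIE mice. The difference of -0.26 had an adjusted p of 0.026 by limma and was not called. By 72 h the groups overlapped, and the difference was -0.012.

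Clk4 lay at 10.08 to 10.47 (median 10.20) in Ctrl and at 9.84 to 10.11 (median 9.94) in CIE mice at 0 h. Only 1 of the 36 pairs of a CIE with a Ctrl mouse had the higher value in the CIE mouse. The difference was -0.27 (SE 0.065, 1.21-fold lower, adjusted p = 0.0076 by limma), and at 8 h it was 0.01. Clk3 was the highest of the 4 at 0 h (0.045) and 7 d (0.022), and Clk2 the lowest at 7 d (-0.041), none of them called.

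The 3 calls at 0 h were close to the threshold. With the hybridization sets as a block Tra2a stayed called (adjusted p = 0.0035 by limma), while Clk1 (0.029) and Clk4 (0.039) did not. Without Ctrl mouse 2, Clk1 and Clk4 were not called either (adjusted p = 0.015 and 0.021 by limma). The blocked fit also gives Ctrl mouse 2 no weight, so these checks overlap. Leaving out 1 mouse ended the call of Clk1 in 8 of 12 cases, and of Clk4 and Tra2a in 7 each.

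**Figure D3:**
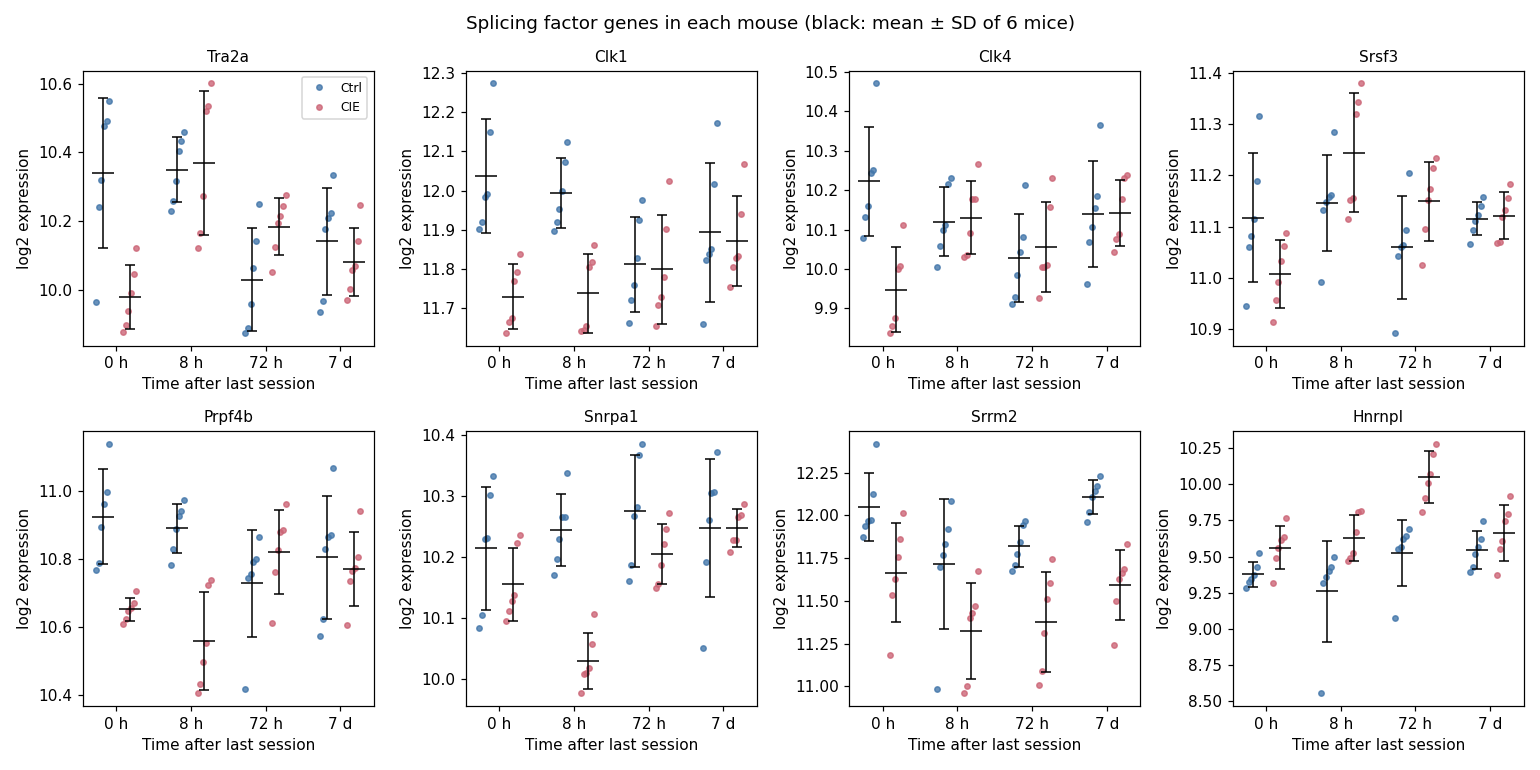
Log2 expression of splicing factor genes in each mouse (points), for Ctrl and CIE mice at each harvest with the mean ± SD of 6 mice; each panel has its own axis, which does not start at 0. The called differences of Tra2a, Clk1 and Clk4 at 0 h (-0.36, -0.31 and -0.27) and of Prpf4b and Snrpa1 at 8 h (-0.33 and -0.21) are the gaps between paired groups.

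The SR matrix proteins Srrm1 and Srrm2 sit in nuclear speckles and bridge splicing factors. Srrm2 had the lowest difference of the 68 genes at each of the 4 harvests. In Ctrl mice it lay, from 0 h to 7 d in order, at 11.88 to 12.42 (median 11.97), 10.98 to 12.09 (median 11.80), 11.68 to 11.97 (median 11.81) and 11.96 to 12.23 (median 12.13). In CIE mice it lay at 11.19 to 12.02 (median 11.69), 10.96 to 11.68 (median 11.42), 11.01 to 11.75 (median 11.41) and 11.24 to 11.83 (median 11.64). The groups were apart at 7 d and overlapped at the other harvests.

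The differences of Srrm2 in order of harvest were -0.39, -0.39, -0.44 and -0.51, and none was called (adjusted p = 0.095, 0.097, 0.23 and 0.023 by limma). Averaged over the harvests it was -0.43 (SE 0.07, 1.35-fold lower, adjusted p = 1.5e-05 by limma), and it was lower in 6 of 6 hybridization sets (-0.69 to -0.022). Without Ctrl mice 18 and 22 the 7 d difference was -0.47 (adjusted p = 0.14 by limma) and the average -0.42 (adjusted p = 6.5e-05 by limma). The average was called in each of 48 refits that left out 1 mouse.

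Srrm1, in the probe set used for it, differed by -0.016 at 0 h and 0.028 at 7 d. Within CIE mice it stood at 10.58 to 10.78 (median 10.70) at 0 h and 10.84 to 10.99 (median 10.91) at 72 h, with no overlap. That rise was 0.21 (SE 0.044, adjusted p = 0.0027 by limma). In Ctrl mice Srrm1 rose by 0.12 between the same harvests, which was not called.

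Of the 19 hnRNPs, 15 were lower at 0 h and 17 higher at 72 h, and 0 were called by limma at a single harvest. Hnrnpl, which binds CA repeats and represses or promotes exons by position, had the highest difference of the 68 genes at 0 h, 8 h and 72 h. At 72 h it lay at 9.07 to 9.69 (median 9.60) in Ctrl and at 9.81 to 10.28 (median 10.04) in CIE mice. All CIE values lay above all Ctrl values. The difference there was 0.52 (SE 0.11, adjusted p = 0.039 by limma).

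Hnrnpl differed by 0.18 at 0 h, 0.37 at 8 h and 0.12 at 7 d. Averaged over the harvests it was higher by 0.30 (SE 0.056, 1.23-fold, adjusted p = 0.00012 by limma), and higher in 6 of 6 hybridization sets (0.17 to 0.60). Its other probe set, a dim one, gave -0.073 (adjusted p = 0.11 by limma), and the mean of both gave 0.11 and was not called (adjusted p = 0.012 by limma). Averaged without 72 h, the call was lost too (0.22, adjusted p = 0.011 by limma).

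Within CIE mice Hnrnpl rose by 0.49 from 0 h to 72 h (SE 0.11, adjusted p = 0.0085 by limma), a call that blocking on the hybridization sets ended (adjusted p = 0.018 by limma). The CIE values of 0 h, 9.32 to 9.76 (median 9.58), did not reach those of 72 h. In Ctrl mice Hnrnpl rose by 0.15 between these harvests, which was not called.

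Nearest to the threshold at 0 h was Hnrnpa2b1, which binds RNA that travels to dendrites. It lay at 12.07 to 12.31 (median 12.18) in Ctrl and at 11.96 to 12.08 (median 11.99) in CIE mice. The ranges overlapped only near their edges. The difference was -0.18 (SE 0.049, adjusted p = 0.018 by limma). Hnrnpm, a regulator of exon skipping, differed by -0.22 (SE 0.061, adjusted p = 0.025 by limma).

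Hnrnpc and Hnrnpdl moved in opposite directions within CIE mice between 0 h and 8 h. Hnrnpc, which binds uridine-rich stretches, went from 11.81 to 12.04 (median 11.93) to 12.05 to 12.23 (median 12.12), a rise of 0.19 (SE 0.047, adjusted p = 0.0083 by limma). Blocking on the hybridization sets ended this call (adjusted p = 0.015 by limma). Hnrnpdl, a relative of Hnrnpd, went from 13.21 to 13.32 (median 13.25) to 13.05 to 13.10 (median 13.08) and fell by 0.18 (SE 0.033, adjusted p = 0.00048 by limma). In both genes the values of 0 h and 8 h were apart. The lowest hnRNPs were Hnrnph3 at 0 h (-0.23), Hnrnpa1 at 8 h (-0.24) and Hnrnpul1 at 7 d (-0.12), none of them called.

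Among the 12 Prp proteins, 7 were lower at 0 h and 10 higher at 8 h. Prpf4b, a kinase that acts on the forming spliceosome, was the lowest of them at both harvests. At 8 h it lay at 10.78 to 10.97 (median 10.91) in Ctrl and at 10.40 to 10.74 (median 10.53) in CIE mice, with no overlap. The difference was -0.33 (SE 0.074, 1.26-fold lower, adjusted p = 0.0037 by limma), and it was lower in 6 of 6 hybridization sets. Blocking on these sets gave an adjusted p of 0.011 by limma, which ended the call.

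At 0 h Prpf4b lay at 10.77 to 11.14 (median 10.93) in Ctrl and at 10.61 to 10.71 (median 10.65) in CIE mice. The groups again were apart. The difference of -0.27 had an adjusted p of 0.02 by limma. At 72 h (0.092) and 7 d (-0.033) its groups overlapped.

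Prpf4, a protein of the tri-snRNP, was the highest Prp protein at 8 h. It lay at 7.56 to 7.70 (median 7.67) in Ctrl and at 7.86 to 7.98 (median 7.87) in CIE mice. All CIE values were above all Ctrl values. The difference was 0.24 (SE 0.065, adjusted p = 0.02 by limma) and was not called.

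Averaged over the harvests, 3 further Prp proteins passed with small differences. Prpf19, a ubiquitin ligase of the active spliceosome, differed by -0.081 (adjusted p = 0.0013 by limma), and its groups were apart at 0 h. The probe set used for Prpf19 is of a type whose probes can match other sequences. The mean of its 5 probe sets gave -0.0098 (adjusted p = 0.82 by limma), and its brightest probe set of another type gave -0.04 (adjusted p = 0.25 by limma), neither called. Prpf8, the protein at the catalytic centre, differed by 0.092 (adjusted p = 0.0039 by limma) and Prpf6, a bridge of the tri-snRNP, by 0.071 (adjusted p = 0.0095 by limma). Blocking on the hybridization sets ended the calls of Prpf8 (adjusted p = 0.014 by limma) and Prpf6 (adjusted p = 0.016 by limma). The call of Prpf6 was also lost in 30 of 48 refits that left out 1 mouse, and without Ctrl mice 18 and 22. Prpf6 was the highest Prp protein at 0 h (0.11) and Prpf31 at 7 d (0.20, adjusted p = 0.11 by limma).

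Of the 9 SF3A and SF3B subunits, 0 were called by limma at a single harvest. Sf3b2, a subunit that contacts the RNA near the branch point, lay at 11.44 to 11.63 (median 11.52) in Ctrl and at 11.31 to 11.41 (median 11.36) in CIE mice at 8 h, with no overlap. Its difference was -0.16 there and -0.10 averaged over the harvests (SE 0.024, adjusted p = 0.0013 by limma). Sf3a1, a subunit with a ubiquitin-like domain, was also apart at 8 h, with a difference of -0.21 (SE 0.06, adjusted p = 0.028 by limma). The highest of the 9 were Sf3a1 at 0 h (0.064), Sf3b1 at 8 h (0.099) and Sf3b3 at 7 d (0.05), none of them called.

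Of the 9 Sm and snRNP proteins, Snrpa1, a protein of the U2 snRNP, was called at 8 h. It lay at 10.17 to 10.34 (median 10.25) in Ctrl and at 9.98 to 10.11 (median 10.01) in CIE mice. The groups were apart, and the CIE value was lower in 6 of 6 hybridization sets. The difference was -0.21 (SE 0.046, 1.16-fold lower, adjusted p = 0.0028 by limma), and blocking on these sets gave an adjusted p of 0.0062 by limma. Its differences at the other harvests, in order, were -0.059, -0.07 and -0.00051, none of them called.

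Snrpd3, a subunit of the Sm ring, stood at 10.20 to 10.35 (median 10.25) at 0 h and at 10.48 to 10.58 (median 10.50) at 72 h in CIE mice. These ranges were apart, and the rise was 0.24 (SE 0.045, adjusted p = 0.00069 by limma). At 72 h its CIE values also lay above all Ctrl values (10.29 to 10.45), with a difference of 0.13 and an adjusted p of 0.28 by limma. The other ends of this family were Snrpc at 0 h (-0.083) and 7 d (-0.11), Snrpb at 0 h (0.072), Snrpb2 at 8 h (0.075) and Snrpn at 7 d (0.099), none of them called. Snrpn was read from its only probe set with a single symbol, a dim one with a mean of 6.26 (percentile 34.7 of all genes). Probe sets with several symbols were not read.

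Ddx5, an RNA helicase that acts in splicing and transcription, was apart at 72 h. It lay at 12.68 to 12.76 (median 12.72) in Ctrl and at 12.82 to 12.89 (median 12.83) in CIE mice. The difference was 0.13 (SE 0.038, adjusted p = 0.19 by limma) and was not called.

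Counted by overlap alone, CIE values lay wholly below Ctrl values for 3 of the 68 genes at 0 h (0.346% of all genes), 5 at 8 h (1.74%), 0 at 72 h (0.451%) and 1 at 7 d (0.214%). They lay wholly above for 0 (1.28%), 1 (1.87%), 4 (0.731%) and 0 (1.13%) genes. The 4 at 72 h were Ddx5, Hnrnpl, Snrpd3 and Prpf38b, a protein of the forming spliceosome.

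Leaving out Ctrl mice 18 and 22 moved several of the uncalled 7 d differences given above. Clk3 (-0.017) and Sf3b3 (-0.036) turned to lower, and Srsf9 (0.021), Srsf5 (-0.019) and Snrpn (0.052) came closer to 0. Clk2 (-0.096), Hnrnpul1 (-0.18), Prpf4b (-0.072), Snrpa1 (-0.064) and Srrm1 (0.058) lay farther from it.

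Averaged over the 4 harvests, 6 of the 68 genes were lower and 4 higher, against 1.91% and 5.99% of all genes. The lower genes were Srrm2, Sf3b2, Prpf19, Clk1 (-0.15), Prpf4b (-0.14) and Snrpa1 (-0.086), and the higher ones Hnrnpl, Prpf8, Srsf10 and Prpf6. Averaged without 0 h, and likewise without 8 h, all the lower genes but Srrm2 lost their calls. Among the higher ones, Srsf10 lost its call without any single harvest. Prpf6 lost it without 0 h, 8 h or 72 h, and Prpf8 without 8 h, 72 h or 7 d. With hybridization sets blocked, 3 of the 4 higher genes, all but Hnrnpl, and Prpf4b among the lower ones (adjusted p = 0.015 by limma) were not called. Under the mean of all probe sets of a gene, the calls lost were those of Hnrnpl, Srsf10, Prpf6, Prpf19, Prpf4b (-0.013) and Snrpa1 (-0.036). The F test over the 4 harvests called 6 of the 68, Srrm2, Hnrnpl, Prpf4b, Clk1, Snrpa1 and Sf3b2, and 6.23% of all genes. Differences were negative at all 4 harvests for 8 of the 68 (11.8%, all genes 6.57%) and positive at all 4 for 10 (14.7%, all genes 17.8%).

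Between harvests, changes were called within CIE mice. From 0 h to 8 h 3 genes rose (1.68% of all genes) and 1 fell (1.27%), and from 0 h to 72 h 3 rose (0.731%) and 0 fell (0.649%). From 0 h to 7 d limma called 0 (1.16%), with 12 genes at an unadjusted p under 0.05 (13.1%). In Ctrl mice limma called 0 from 0 h to 8 h (0.456% of all genes), with 11 at an unadjusted p under 0.05 (17.4%). From 0 h to 72 h it called 0 (0.445%), with 16 (17.4%), and from 0 h to 7 d 0 (0.264%), with 6 (13.5%). The test of a difference between CIE and Ctrl mice in these changes is that of the CIE effect between harvests, which called 0.

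The 135 other probe sets of these genes gave a different picture for some of them. Averaged over the harvests 12 were lower and 5 higher, where 7.94% and 5.44% of the other probe sets of all genes were called. At 0 h 3 were lower and 0 higher (1.41% and 0.818%), at 8 h 1 and 4 (0.555% and 2.01%), at 72 h 0 and 0 (0% and 0%) and at 7 d 2 and 1 (1.13% and 0.633%). At 0 h 102 of the 135 were negative, with a median of -0.072.

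**Figure D4:**
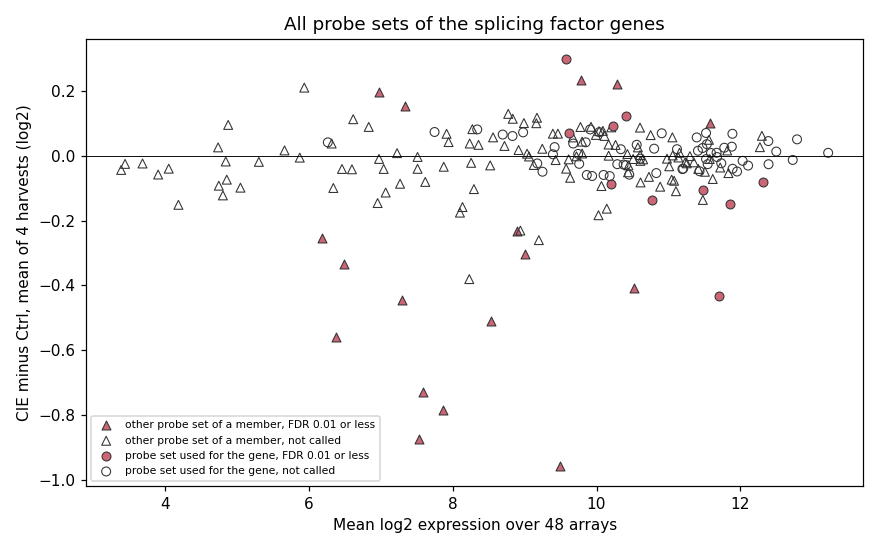
Difference between CIE and Ctrl averaged over the 4 harvests (log2) against mean log2 expression over the 48 arrays for the 203 probe sets of the 68 genes, with those used for a gene and the 135 others marked apart. The lowest differences, such as -0.96 for Sf3b2, belong to other probe sets.

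Srrm2 shows how far probe sets of 1 gene could part. Its probe set 1437638_at lay at 8.46 to 9.30 (median 8.83) in Ctrl and 7.09 to 8.50 (median 7.72) in CIE mice at 0 h. The difference was -1.10 (SE 0.21, adjusted p = 0.0014 by limma), and it was -1.03 at 7 d and -0.79 on average (adjusted p = 0.0037 and 8.6e-07 by limma). Blocking on hybridization sets ended the call at 0 h (adjusted p = 0.016 by limma), and leaving out Ctrl mice 18 and 22 that at 7 d (-0.83, adjusted p = 0.078 by limma). The probe set 1427902_at lay at 9.29 to 9.47 (median 9.33) in Ctrl and 9.14 to 9.68 (median 9.43) in CIE mice at 0 h and differed on average by 0.069 (adjusted p = 0.24 by limma). So 2 of the 3 probe sets of Srrm2 were lower on average and the third was not called, and the difference between them was not tested.

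Sf3b2 showed a like split. Its probe set 1429362_a_at lay at 10.12 to 10.98 (median 10.28) in Ctrl and 8.34 to 10.20 (median 9.53) in CIE mice at 0 h. On average it differed by -0.96 (SE 0.13, adjusted p = 1.8e-06 by limma), and it was lower in 6 of 6 hybridization sets (-1.59 to -0.55). The probe set used for the gene, of a type whose probes can match other sequences, gave -0.10, and 1433461_at gave 0.0017.

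Srrm1, not called through the probe set used for it (0.023 on average), was lower on average in 3 others, 1442330_at (-0.56), 1420935_a_at (-0.41) and 1420934_a_at (-0.23). Of these, 1420935_a_at lay at 10.61 to 11.19 (median 10.92) in Ctrl and 9.92 to 10.86 (median 10.43) in CIE mice at 0 h, where the groups overlapped. Its average had an adjusted p of 4.5e-05 by limma.

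Other probe sets that were lower on average belonged to Srsf11 (1439095_at, -0.87), Prpf38b (1456506_at, -0.73), Hnrnpr (1452030_a_at, -0.51, and 1438807_at, -0.30), Tra2a (1455933_at, -0.45), Tra2b (1446496_at, -0.33) and Hnrnpab (1459880_at, -0.25). Higher on average were probe sets of Srsf1 (1428100_at, 0.23), Sf3b1 (1418561_at, 0.22), Prpf38a (1443282_at, 0.20, a call lost under the block), Snrpb2 (1452131_at, 0.15) and Hnrnpu (1423051_at, 0.10). None of these 11 genes was called on average through the probe set used for it.

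Among the other probe sets of all genes, 2.01% were called higher at 8 h and 0.555% lower. The called ones among the other probe sets of the genes described here were likewise mostly higher at 8 h. They were of Sf3b1 (1418561_at, 0.35), Tra2b (1419543_a_at, 0.28), Srsf3 (1416152_a_at, 0.24) and Hnrnpu (1423051_at, 0.23), while Hnrnpdl (1424252_at) was lower (-0.21). At 0 h Srsf6 (1448454_at, -0.32) and Srsf10 (1449121_at, -0.27) were lower beside Srrm2, and all 3 lost their calls with the hybridization sets as a block. At 7 d Tra2b (1446496_at, -0.54) was lower and Snrpb2 (1452131_at, 0.32) higher. Snrpb2 lost its call under the block (adjusted p = 0.013 by limma), and both lost it without Ctrl mice 18 and 22, at -0.54 (adjusted p = 0.02 by limma) for Tra2b and 0.32 (adjusted p = 0.046 by limma) for Snrpb2.

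For the genes called at single harvests the other probe sets were uneven too. Those of Tra2a gave -0.54, -0.39, -0.32, 0.013 and 0.18 at 0 h, where the one used gave -0.36, and the other of Clk4 gave -0.22. At 8 h those of Prpf4b gave -0.05, -0.022, -0.0097, -0.0038 and 0.053 beside -0.33, and those of Snrpa1 -0.084 and 0.012 beside -0.21. Clk1 has 1 probe set with a single symbol. Which transcripts each probe set reads was not examined.

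Malat1, a long noncoding RNA of nuclear speckles, also had lower CIE values in the mean of its probe sets. The mean of its 7 probe sets was 10.54 to 11.55 (median 11.00) in Ctrl and 9.29 to 10.67 (median 9.87) in CIE mice at 0 h, and 10.27 to 11.01 (median 10.76) and 9.03 to 10.66 (median 9.68) at 7 d. At 8 h it was 8.71 to 10.46 (median 9.95) in Ctrl and 8.97 to 9.98 (median 9.52) in CIE mice. At 72 h it was 9.36 to 10.10 (median 10.02) and 8.79 to 9.86 (median 9.47). The Ctrl medians thus also differed between harvests. Without Ctrl mice 18 and 22 the Ctrl mice of 7 d lay at 10.27 to 11.01 (median 10.55). Its brightest probe set differed by -0.18 at 0 h and -0.042 at 7 d, so its probe sets parted as well. Whether Malat1 and the lower probe sets share a source was not tested.

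**Figure D5:**
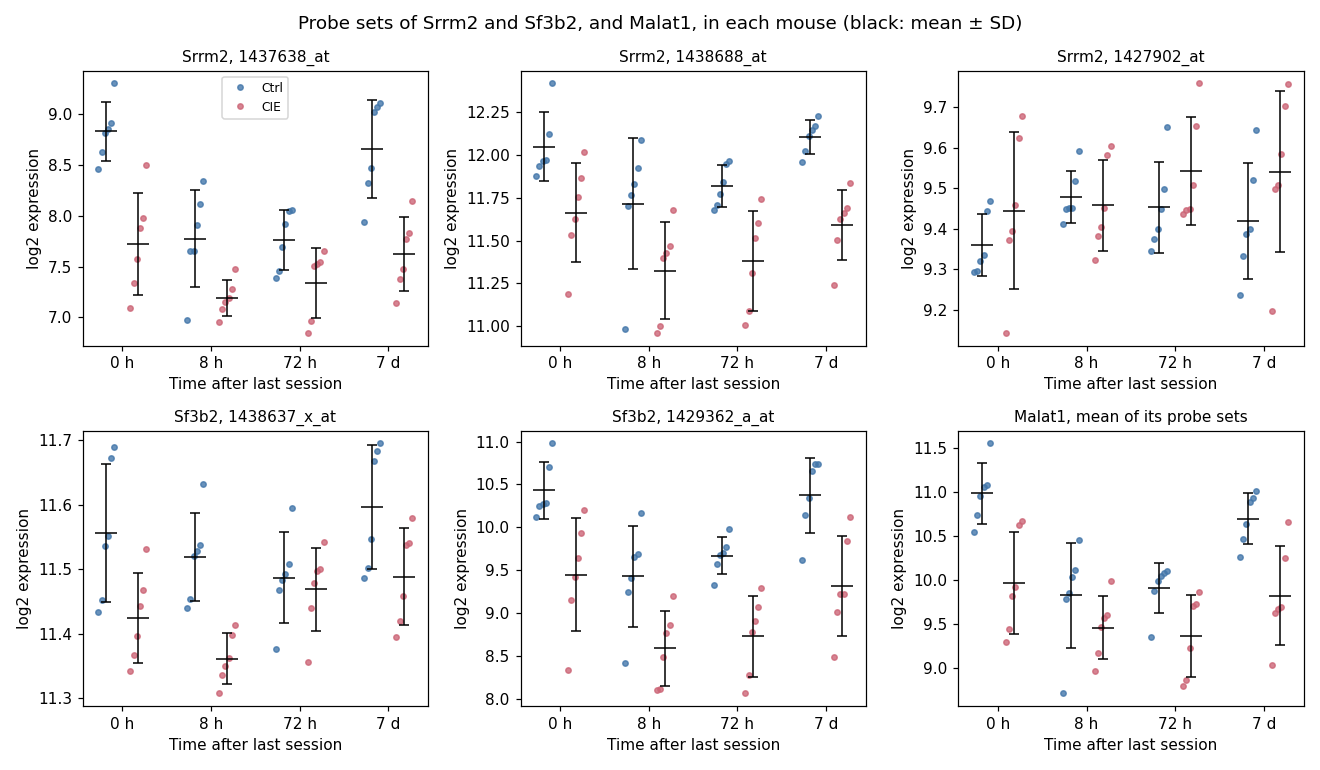
Log2 expression in each mouse for probe sets of Srrm2 and Sf3b2 and for the mean of the 7 probe sets of Malat1, with the mean ± SD of 6 mice per group, each panel on its own axis that does not start at 0. At 0 h the CIE median of Srrm2 probe set 1437638_at lies below its Ctrl median, and the mean of the Malat1 probe sets does the same.

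Other genes of the splicing pathway, from lists of 173 genes outside the naming rule, were measured for 157. At 0 h 1 was higher (1.25% of all genes) and 1 lower (0.39%), and at 8 h 2 were higher (1.6%) and 3 lower (0.693%). At 72 h limma called 0, with 26 at an unadjusted p under 0.05 (7.57% of all genes). At 7 d 1 was higher (0.852%) and 0 lower (0.176%), and averaged over the harvests 8 were higher (5.99%) and 8 lower (1.91%). At 0 h 97 of the 157 were negative (median -0.019), and at 72 h 44 were (median 0.046).

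The called genes of these lists were mostly of 8 h. Ddx23, a helicase of the U5 snRNP, lay at 6.91 to 7.21 (median 7.12) in Ctrl and 6.56 to 6.87 (median 6.72) in CIE mice, with no overlap. Its difference was -0.40 (SE 0.062, adjusted p = 5.4e-05 by limma), and that of Slu7, which helps choose the 3' splice site, was -0.39 (SE 0.068, adjusted p = 0.00019 by limma). Rbm28 was lower at 0 h (-0.27) and 8 h (-0.25). Rbm47 was higher at 8 h (0.43) and 7 d (0.33), Syncrip at 8 h (0.21) and Rbm33 at 0 h (0.25). Blocking on the hybridization sets ended the calls of Rbm28 at 0 h and 8 h (adjusted p = 0.046 and 0.016 by limma), Rbm33 at 0 h (0.04) and Rbm47 at 7 d (0.012). Without Ctrl mice 18 and 22 Rbm47 was not called at 7 d either (0.29, adjusted p = 0.07 by limma).

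Of 9 nuclear noncoding RNAs, Neat1, the scaffold of paraspeckles, was called at 8 h. It lay at 10.61 to 11.02 (median 10.70) in Ctrl and 11.19 to 11.40 (median 11.29) in CIE mice. All CIE values were higher, and the difference was 0.56 (SE 0.10, adjusted p = 0.00045 by limma). Its other, dimmer probe set gave 0.076 (adjusted p = 0.64 by limma). Rian was nearest in size at 8 h (0.53, adjusted p = 0.025 by limma), and Malat1 (-0.22, adjusted p = 0.017 by limma), Meg3 (0.044), Miat (-0.06), Snhg1 (-0.16), Snhg11 (0.19), Snhg12 (-0.19) and Gas5 (-0.027) were not called there. Each of these values is from 1 probe set, and others could differ in sign. The others of Rian gave 0.29, -0.28 and -0.11 at 8 h. Those of Snhg1 gave 0.072, 0.064, 0.15 and 0.071, and that of Snhg11 gave -0.066.

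Markers of cell types were read beside these results. Of 10 general neuron markers 6, 5, 7 and 4 were higher in CIE mice from the first to the last harvest. Of 9 microglia markers 8, 7, 0 and 8 were higher, of 9 astrocyte markers 3, 3, 3 and 9, and of 8 oligodendrocyte markers 1, 7, 0 and 0. At 72 h, where 55 of the 68 splicing factor genes were higher, the mean of the microglia list lay at 9.24 to 9.55 in Ctrl and 9.06 to 9.35 in CIE mice. Of 7 markers each, 1 of endothelium, 3 of choroid plexus and 5 of blood were higher at 72 h. At 0 h the mean of the blood list lay at 4.80 to 5.03 (median 4.92) in Ctrl and 4.72 to 4.81 (median 4.79) in CIE mice. At 7 d that of the choroid plexus list lay at 5.26 to 5.98 (median 5.66) and 5.94 to 6.42 (median 6.12). The counts and ranges of 7 d include the Ctrl mice with low hippocampal markers and are not given without them. Whether the 7 d shifts of these lists rest on those mice was not tested. The part of the marker shifts in the results was not tested either.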

How the data were processed

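The authors deposited log2 expression values, made with robust multi-array average within hybridization batches, quantile normalization over all arrays and ComBat, and the sources used here give no tool versions. These steps can shrink differences that follow the batch. The values of 48 arrays were used as deposited. The platform annotation gave 34945 probe sets 1 symbol, 932 several and 9160 none. Group means over all 48 arrays were fitted at once with limma 3.58.1 in R 4.3.3 (40 residual degrees of freedom), which gave moderated two-sided tests with lmFit and eBayes, adjusted over all probe sets and called at an FDR of 0.01, the threshold of the study. Group errors are those between mice. ComBat had removed the batch before this fit, which holds no term for it, so its SE and p can be too small. With the sets as a block there were 34 residual degrees of freedom. At 8 h the median over all genes was 0.0057 in both fits. There 291 genes were called higher and 126 lower in the main fit, and 200 and 77 with the block. The number of arrays limits the precision.

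The members, the lists and the tests were chosen with earlier results of these data known. Named genes were those called, the ends of each family at 0 h, 8 h and 7 d, the nearest to the threshold, and other called probe sets of these genes. Genes of the wider lists and Malat1 stand beside them, and Srsf1, Srsf11, Hnrnpab, Hnrnpr, Hnrnpu, Prpf38a and Tra2b at 8 h were named after their values were seen, as were genes called only by overlap. Arrays sharing at least 5 values equal within 1e-08 were joined into hybridization sets, which no label gives. The tests were checked on simulated data. Alternatives were the sets as a block, separate fits, a minimum mean of 5, other normalization, centring, variance model, array weights, other choices of probe set, an FDR of 0.05 and leaving out each mouse. Leaving out a harvest, or arrays that stood apart, was chosen after seeing the data.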

Additional observations from a re-analysis of the deposited data

Results flagged for a closer look

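In 6 of 96 groups of 6 mice, for 12 genes with a called difference, 1 mouse lay far from the nearest other, judged by the range of its group (Dixon's test), and chance gives this in about 1 group in 20. Ctrl mouse 24 at 72 h had the lowest Prpf4b of its group (10.4176, the nearest other 10.74). Ctrl mouse 4 at 8 h was low for Hnrnpl (8.55242, nearest 9.32) and for Srrm2 (10.9849, nearest 11.70). Ctrl mouse 6 at 72 h was low for Hnrnpl (9.07498, nearest 9.55). Ctrl mouse 8 at 8 h was high for Prpf6 (9.65318, nearest 9.59), and CIE mouse 57 at 0 h was high for Srsf10 (10.6663, nearest 10.40).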

How the results depend on the processing

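No paired analysis was possible because the labels give each mouse a number of its own, and none recurs between groups. The hybridization sets, which were found in the values and hold at most 1 mouse of each group, served as a block: 1 gene was called at 0 h, 1 at 8 h and 6 on average, where Prpf4b, Prpf6, Prpf8 and Srsf10 were lost. Separate fits of each harvest called 0 at 0 h and 1 at 8 h, which was Prpf4. Array weights called 0 at 0 h, 8 at 8 h, 1 at 72 h, 8 for CIE mice at 8 h against 0 h, 6 at 72 h against 0 h and 11 by the F test. The mean of all probe sets of a gene called 0 at 8 h, 1 at 7 d, 2 for CIE mice at 8 h against 0 h and 1 for Ctrl mice at 8 h against 0 h, and turned Prpf6 on average to -0.034. An FDR of 0.05 called 7 at 0 h, 8 at 8 h, 1 at 72 h, 1 at 7 d, 9 and 7 for CIE mice at 8 h and 72 h against 0 h, 2 for the CIE effect at 72 h minus 0 h, 1 for Ctrl mice at 72 h against 0 h and 14 by the F test. Setting shared-probe types aside turned Sf3b2 on average to 0.0017. Averaging without 0 h, 8 h or 72 h called 4, 2 and 5. Srrm2 was called on average under each of 13 such alternatives, and Hnrnpl in 11. Without the 2 Ctrl mice of 7 d with low hippocampal markers, 8 were called on average and 0 at 7 d.

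Leaving out 1 mouse gave 0 to 4 calls at 0 h, 0 to 3 at 8 h, 6 to 10 on average, 4 to 8 by the F test, 0 to 1 for the CIE effect at 72 h minus 0 h, 1 to 6 for CIE mice at 8 h against 0 h, 1 to 4 at 72 h against 0 h, and 0 to 0 for every other comparison. At 0 h 1 gene was called without Ctrl mouse 2, 12 or 64, and 0 without Ctrl mouse 56 or CIE mouse 19, 43, 57 or 72. At 8 h 0 were called without Ctrl mouse 8 or CIE mouse 25, and 1 without Ctrl mouse 79 or CIE mouse 21. On average 6 were called without Ctrl mouse 68 or CIE mouse 35. For CIE mice at 8 h against 0 h, 2 were called without CIE mouse 19, 23 or 69 and 1 without CIE mouse 41, and at 72 h against 0 h 1 without CIE mouse 67 or 71. The cause was not tested. Among the genes called at a single harvest, the highest adjusted p with 1 mouse left out was 0.031 by limma, for Clk4 at 0 h.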
